A study of Mus musculus with 6 samples.

Results

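The insulin-like growth factor (IGF) system was followed in mouse cardiac cells through 10 genes taken from a list of names: the ligands Igf1 and Igf2, the noncoding RNA H19, the receptors Igf1r and Igf2r, and the binding protein genes Igfbp2, Igfbp3, Igfbp4, Igfbp5 and Igfbp7. All 10 were matched by Entrez identifier among the 27179 genes of the bulk table, and by Ensembl identifier among the 28085 and 28394 gene columns of the 2 single-cell chips. Immature cardiomyocytes (imCMs) from hearts of C57BL/6 mice at postnatal day 1 were grown for 3.5 days with neonatal cardiac fibroblasts (NFs, postnatal day 1) or adult cardiac fibroblasts (AFs, postnatal day 56). Per the study's methods, fibroblasts had been passaged to enrich them, relatively more AFs than NFs were plated per imCM, and the cells were parted by sorting. RNA of the imCMs was sequenced in bulk (imCM-NF, n = 2 libraries; imCM-AF, n = 2 libraries), and single cells were sequenced on the ICELL8 nanowell platform in 1 library of cardiomyocytes and 1 library of fibroblasts. The labels do not say whether the bulk libraries of a group came from separate cultures, so the p-values measure only the spread between these libraries.

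IGF1 and IGF2 are secreted peptides that drive growth and survival mainly through the receptor tyrosine kinase IGF1R, while IGF2R carries no kinase and takes IGF2 to lysosomes. IGF binding proteins hold the ligands outside the cell, extend their lifetime or keep them from the receptor, and IGFBP7 is a related protein that binds IGFs only weakly. Igf2 and H19 are neighbours under imprinted control, Igf2 being expressed mainly from the paternal and H19 from the maternal allele, and both are abundant in fetal tissues and fall after birth.

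Of the 10 genes, 2 binding protein genes differed between the bulk groups past both thresholds, and the starts of these are shown so that the transcripts behind the finding can be placed. Igfbp3 lies on chromosome 11 (GRCm38, 7206086 to 7215498, minus strand) and Igfbp5 on chromosome 1 (72858065 to 72874865, minus strand), where it lies 5.59 kb from Igfbp2. The 250 bases before the annotated start, read from RefSeq on GRCm38.p6, are chr11:7213924-7214173 for Igfbp3 and chr1:72874866-72875115 for Igfbp5. The Igfbp3 start used here lies inside the span of the gene, whose annotation also holds a transcript that starts further upstream. Capitals mark the string TATATA for Igfbp3 and the string TATTTAA for Igfbp5.
Igfbp3: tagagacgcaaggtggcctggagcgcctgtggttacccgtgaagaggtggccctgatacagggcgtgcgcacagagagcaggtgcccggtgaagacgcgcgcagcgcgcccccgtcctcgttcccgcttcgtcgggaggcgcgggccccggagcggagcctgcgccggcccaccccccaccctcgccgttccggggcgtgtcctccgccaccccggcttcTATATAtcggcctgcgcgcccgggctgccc
Igfbp5: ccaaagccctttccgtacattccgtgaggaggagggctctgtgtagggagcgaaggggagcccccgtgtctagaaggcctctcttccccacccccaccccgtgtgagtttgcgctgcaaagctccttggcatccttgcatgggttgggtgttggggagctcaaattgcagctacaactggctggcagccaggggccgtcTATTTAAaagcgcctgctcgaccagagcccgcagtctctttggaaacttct
TATATA reads the same on both strands and lies 30 bases before the start of Igfbp3, and TATTTAA lies 51 bases before the start of Igfbp5. Searched on both strands, TATATA occurs in 5.3% and TATTTAA in 4.2% of 32817 mouse promoters of the same length, and both strings were chosen after the sequences had been read. Neither window holds TATAAA, found in 12.4% of promoters. The same is true of CCAAT, found in 33.8%, and of GGGCGG, found in 32.7%. Promoter sequence was matched for 9 of the 10 genes, H19 being the exception, and Igfbp4 is the gene of the list with TATAAA, 28 bases before its start. These matches describe letters and not binding.

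In the bulk libraries, counts summed to between 9278909 and 12088577, and libraries of a group differed by more than counting noise (chi-square per degree of freedom 8.60 in imCM-NF and 8.42 in imCM-AF). Values are CPM, read counts scaled to a common library total after TMM normalization, and the test was edgeR's quasi-likelihood test with Benjamini-Hochberg adjustment over 14041 genes. Genes were called where the adjusted p was below 0.05 and the log2 fold change exceeded 0.58 in size. All 10 genes were tested. Of these, 2 were called, against 11.1% of all genes tested. Both were lower in imCM-AF, a direction called for 4.99% of all genes, and none was called higher, against 6.15%.

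Igf1 stood at 11.8 and 10.2 CPM in imCM-NF and at 9.13 and 13.1 CPM in imCM-AF. The 2 groups overlapped, with a log2 fold change of 0.03 ± 0.19 (SE, adjusted p = 0.936 in edgeR). Igf2 stood at 282 and 249 CPM in imCM-NF and at 256 and 281 CPM in imCM-AF. Its groups overlapped as well (log2 fold change 0.02 ± 0.11, edgeR adjusted p = 0.936). Per kilobase of exon, the level was 1.11 CPM in imCM-NF and 1.12 CPM in imCM-AF for Igf1 and 46.4 and 46.9 CPM for Igf2. The Igf2 level was thus far higher on that scale in bulk, an order that the single wells below did not share.

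H19 lies 72.6 kb from Igf2 on chromosome 7 (142575530 to 142578146, minus strand). It was counted at 406 and 401 CPM in imCM-NF and at 361 and 400 CPM in imCM-AF. The groups did not overlap but came within a few CPM of each other, and the log2 fold change was -0.09 ± 0.11 (edgeR adjusted p = 0.598). One exon of H19 holds the precursor of miR-675, whose mature arms are shown with the seed, bases 2 to 8, in capitals because this microRNA is the known small RNA product of H19.
mmu-miR-675-5p: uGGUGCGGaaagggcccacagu
mmu-miR-675-3p: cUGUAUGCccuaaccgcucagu
The arms lie at chr7:142577112-142577133 and chr7:142577078-142577099 on the minus strand (RefSeq, GRCm38.p6) and share no seed. The bulk table gives the precursor a row of its own, Mir675, whose imCM-NF libraries had 38.7 and 38.8 CPM and whose imCM-AF libraries had 33.7 and 37.8 CPM (adjusted p = 0.439 in edgeR). All 84 of its bases lie inside H19, so the row counts longer RNA fragments and is no measure of the mature microRNA. Igf2 shares 62.8% of its exon bases with the gene Gm49394 on the same strand. No Entrez identifier, by which the bulk genes are listed, was found for Gm49394, and it was not found among the gene columns of the chips. How the counting treated reads of the shared bases is not given in the sources used here.

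Igf1r was counted at 173 and 153 CPM in imCM-NF and at 164 and 165 CPM in imCM-AF. The imCM-AF libraries lay between the imCM-NF libraries (log2 fold change 0.01 ± 0.10, edgeR adjusted p = 0.941). Igf2r was counted at 616 and 583 CPM in imCM-NF and at 444 and 425 CPM in imCM-AF, with no overlap. Its log2 fold change of -0.46 ± 0.12 had an adjusted p of 0.00694 in edgeR but did not reach the fold threshold. Without imCM-AF replicate 2, the adjusted p for Igf2r in edgeR was 0.109. Per kilobase, Igf2r stood at 64.4 CPM in imCM-NF and 46.7 CPM in imCM-AF, against 9.70 and 9.78 CPM for Igf1r.

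Among the binding proteins, Igfbp3, the main carrier of IGFs in serum, was counted at 132 and 145 CPM in imCM-NF and at 70.2 and 78.0 CPM in imCM-AF. Both imCM-AF libraries lay well below both imCM-NF libraries. The log2 fold change was -0.90 ± 0.10 (edgeR adjusted p = 5.22e-06), or 1.87-fold lower in imCM-AF. Igfbp5, a binding protein that attaches to matrix, was counted at 45.6 and 35.4 CPM in imCM-NF and at 22.9 and 21.3 CPM in imCM-AF. Its groups did not overlap either, with a log2 fold change of -0.86 ± 0.13 (adjusted p = 1.13e-04 in edgeR), or 1.82-fold lower. Igfbp3 and Igfbp5 kept their calls with each library left out in turn, with log2 fold changes from -0.97 to -0.81 for Igfbp3 and from -1.04 to -0.68 for Igfbp5.

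Igfbp7 had the highest level per kilobase of the 10 genes (813 CPM in imCM-NF and 603 CPM in imCM-AF), with 866 and 1100 CPM for imCM-NF and 763 and 696 CPM for imCM-AF before division by length. The groups did not overlap, and the log2 fold change of -0.43 ± 0.14 had an adjusted p of 0.0322 in edgeR without reaching the fold threshold. The Igfbp7 value leaned on single libraries. With imCM-NF replicate 1 left out, its log2 fold change was -0.59 (adjusted p = 0.00692 in edgeR), past both thresholds. With imCM-NF replicate 2 left out, it was -0.24 (adjusted p = 0.228 in edgeR). Leaving out either imCM-AF library also raised the edgeR adjusted p for Igfbp7, to 0.0752 (replicate 1) and 0.259 (replicate 2).

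Igfbp2 was counted at 27.5 and 31.8 CPM in imCM-NF and at 36.5 and 26.2 CPM in imCM-AF, and the imCM-AF libraries enclosed those of imCM-NF (log2 fold change 0.07 ± 0.14, edgeR adjusted p = 0.748). Igfbp4, an inhibitory binding protein that the protease PAPP-A cleaves, was counted at 76.0 and 74.3 CPM in imCM-NF and at 76.4 and 64.9 CPM in imCM-AF (log2 fold change -0.09 ± 0.10, edgeR adjusted p = 0.537). By the adjusted p alone, at any fold, 4 of the 10 genes were lower (Igf2r, Igfbp3, Igfbp5 and Igfbp7), against 14.5% of all genes, and none was higher, against 12.5%. The groups did not overlap in 5 of the 10 genes (H19, Igf2r, Igfbp3, Igfbp5 and Igfbp7), which is less than the 66% of all genes.

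**Figure D1:**
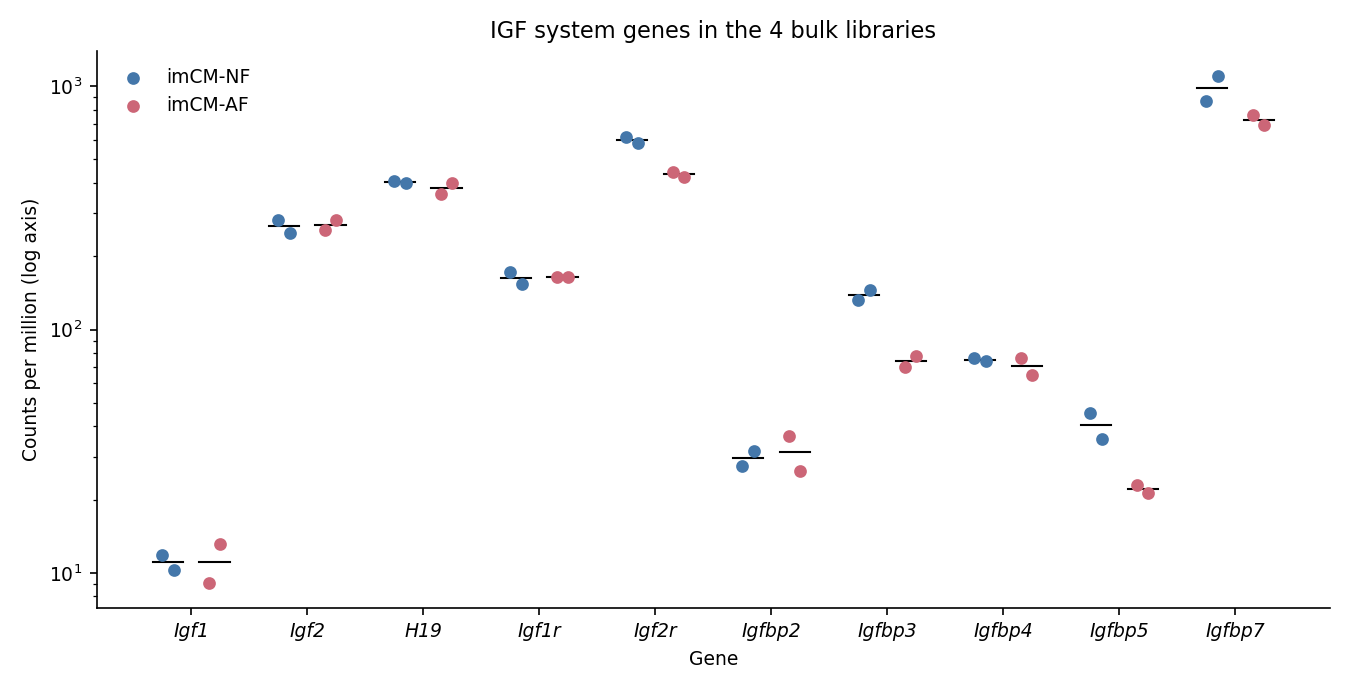
Read counts as CPM on a log axis for each IGF system gene in the 4 bulk libraries. Each point is 1 library, blue for imCM-NF and red for imCM-AF, and the black line is the mean of 2 libraries. The red points lie clearly below the blue points for Igf2r, Igfbp3, Igfbp5 and Igfbp7, while the colours mix for Igf1, Igf2, Igf1r, Igfbp2 and Igfbp4.

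**Figure D2:**
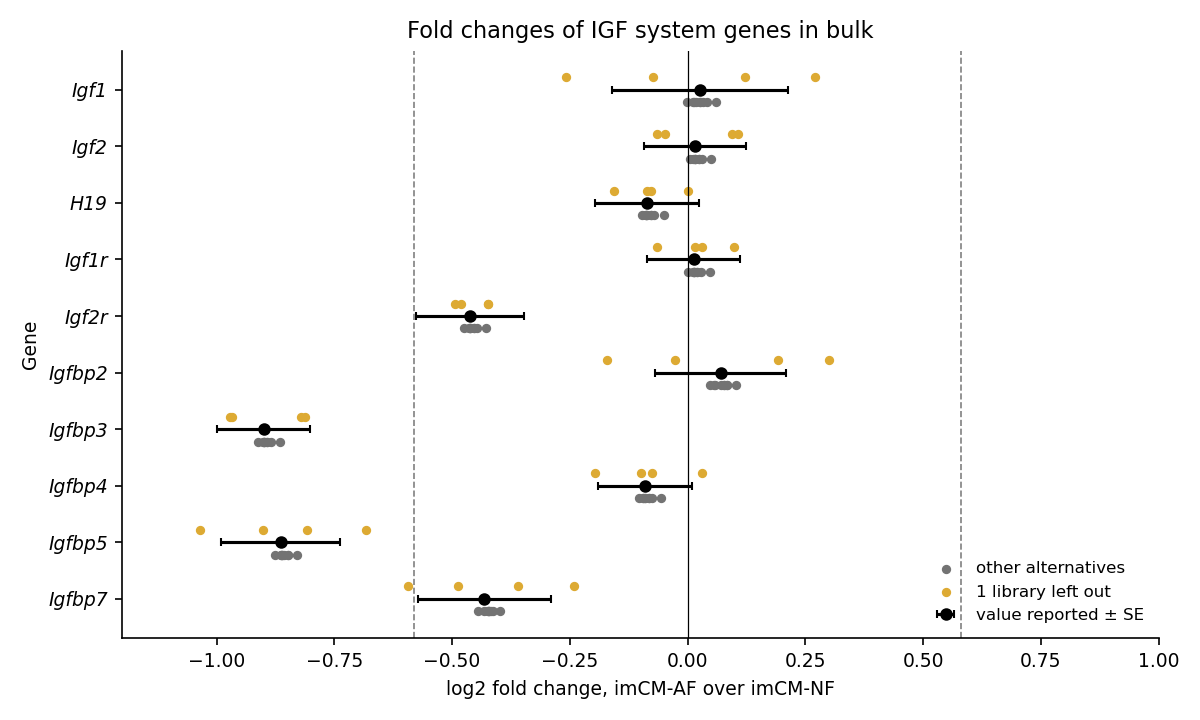
Log2 fold change of imCM-AF over imCM-NF for each gene. Black points are the reported values with their SE, yellow points leave out 1 library each, grey points are other processing alternatives, and dashed lines mark the threshold of 0.58 in either direction. Igfbp3 and Igfbp5 lie beyond the dashed line in every case drawn, Igfbp7 crosses it without imCM-NF replicate 1, and the points of Igf1, Igf2, H19, Igf1r, Igfbp2 and Igfbp4 reach or cross 0.

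Cardiomyocyte markers were abundant in every bulk library, the 10 genes summing to between 32192 and 45870 CPM, with 2 called higher and none lower in imCM-AF. Markers of other cell types also differed, and no endothelial or fibroblast marker was at 0 in a library. Of 10 endothelial markers, all tested, 5 were called lower and none higher in imCM-AF, with a median log2 fold change of -0.62, and their summed level was 674 and 641 CPM in the imCM-AF libraries against 993 and 1030 CPM in those of imCM-NF. Of 12 fibroblast markers, all tested, 7 were called lower and 1 higher, with a median of -0.73, and their summed level was 10835 and 8578 CPM in the imCM-AF libraries against 15588.5 and 17080 CPM in those of imCM-NF. Of 9 macrophage markers tested, 2 were called lower, with a median of -0.46. Among 10 smooth muscle and pericyte markers 2 were called lower and 1 higher (median -0.29), and among 6 epicardial markers tested 1 was called lower (median -0.10). The median over all genes tested was 0.00. The part of these cells in the lower Igfbp3, Igfbp5, Igf2r and Igfbp7 was not tested. In bulk RNA, fewer cells of a type and less RNA per cell cannot be told apart.

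The wider pathway was read from a list. This list of 38 genes of IGF and insulin signalling held 32 tested genes, of which none was called by edgeR, against 11.1% of all genes. In edgeR 10 had an unadjusted p under 0.05 (7 with DESeq2 and 10 with limma-voom). The share of all genes under that p was not taken, so these counts cannot be read as a result about the list. The median log2 fold change of the 32 genes was 0.08. By the adjusted p alone 7 of the 32 were higher, against 12.5% of all genes, and none lower, against 14.5%. These were the insulin receptor gene Insr (log2 fold change 0.46 ± 0.13, edgeR adjusted p = 0.0126), Pappa, which encodes the protease PAPP-A (0.46), the adaptor gene Grb14 (0.40), and the kinase genes Pik3cb (0.39), Mtor (0.34), Pdpk1 (0.32) and Rps6kb1 (0.32). Insr was counted at 94.2 and 69.1 CPM in imCM-NF and at 102 and 122 CPM in imCM-AF, and it passed both thresholds when replicate 1 of either group was left out. The most abundant of the remaining genes, Akt1 (log2 fold change -0.18), Grb10 (-0.08), Htra1 (0.04), Eif4ebp1 (0.02) and Tsc2 (0.01), did not pass the test. The genes Ins1, Ins2 and Igfbp1 had no count in any library, and Insrr, Igfals and Pappa2 were too low to be tested.

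Among 20 other imprinted genes, 18 were tested, of which 3 were called higher and 5 lower in imCM-AF, against 6.15% and 4.99% of all genes. Their median log2 fold change was -0.21. The higher genes were Slc22a18 (log2 fold change 1.86), Meg3 (0.88) and Kcnq1ot1 (0.59). The lower genes were Nnat (-1.26), Peg10 (-1.01), the cell cycle inhibitor gene Cdkn1c (-0.99), Ndn (-0.74) and Dlk1 (-0.62). Of 10 cell cycle genes, all tested, 4 (Plk1, Aurkb, Ccnb1 and Aurka) were called lower, against 4.99% of all genes, and none higher. Igf2 and H19, with log2 fold changes of 0.02 and -0.09, were in neither set of calls.

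The single wells gave the level of each gene by kind of well and by cluster. Of 2462 wells other than controls, 2251 were kept, 1297 on the cardiomyocyte chip (median 18263 unique molecular identifiers, UMIs, a well) and 954 on the fibroblast chip (median 27857). The well names give 16 pools, here joined into 7 kinds: imCM-NF (3 pools), imCM-AF (3) and NCM0 (2) on the cardiomyocyte chip, and NF, AF, NF0 and AF0 (2 each) on the fibroblast chip. The meaning of the 0 in a name and of the numbers is not stated, pools of a chip share 1 library, and no test was made between them. The 2 chips shared 269 barcodes. Negative control wells, 5 on each chip, held 1 UMI of the 10 genes in all, for Igfbp7. Over all genes they held 1465 UMIs on the cardiomyocyte chip and 3587 on the fibroblast chip, too few to measure background. Levels of wells are also in CPM, here the UMIs of a gene scaled by the summed UMIs of a pool, with 95% exact Poisson intervals that cover counting error only.

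Several kinds of well departed from their names. Of 171 AF0 wells, 168 fell in 1 unnamed cluster led by Upk1b, Upk3b and Lrrn4, and the summed level of 8 epicardial markers was 351 CPM in AF0 and 16 to 64 in the other kinds. Cardiomyocyte markers summed to 3742 CPM in NF and 5186 in NF0, against 658 in AF and 260 in AF0. Of imCM-AF wells, 10.9% lay in clusters named endothelial-like and 18.8% in clusters named fibroblast-like, against 2.10% and 11.5% of imCM-NF wells. Clusters named cardiomyocyte-like held 35.5% of imCM-AF and 57.7% of imCM-NF wells. The pools hold all kept wells of a name, whatever their cluster. Clusters were formed without the 10 genes and the pathway list, and 11 of 16 could be named from markers. The unnamed clusters held 742 wells, 33.0% of all wells, so part of each gene's signal has no named class. They held 28.4% of the Igf1 and 31.8% of the Igf1r UMIs. For Igfbp4 they held 1409 UMIs, more than any named class.

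Levels were then compared between the 4 named classes of cluster. Igf1 was highest in the 38 macrophage-like wells, at 1063 CPM (1013 to 1114), against 86.4 in endothelial-like, 45.7 in fibroblast-like and 12.2 in cardiomyocyte-like wells. The unnamed cluster led by Upk1b stood at 122 CPM (115 to 130) for Igf1. The 38 macrophage-like wells, 1.69% of all wells, held 34.1% of the Igf1 UMIs. At least 1 Igf1 UMI was seen in 97.4% of macrophage-like wells (exact binomial interval 86.2 to 99.9) and in 12.7% of cardiomyocyte-like wells (10.3 to 15.4). Igf2 had its highest levels in endothelial-like (36.6; 31.0 to 42.9) and cardiomyocyte-like wells (35.3; 32.7 to 38.0), which did not differ beyond counting error, and cardiomyocyte-like wells held 44.3% of its UMIs. Of the Igf2 UMIs in endothelial-like wells, 53.0% came from 5 wells.

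H19 stood at 192 CPM (179 to 206) in the 115 endothelial-like wells and at 14.4 in fibroblast-like, 6.24 in macrophage-like and 5.53 in cardiomyocyte-like wells. It was spread unevenly, since 5 wells gave 70.7% of its endothelial-like UMIs. Both endothelial-like clusters carried it, at 206 (189 to 224) and 166 (145 to 188) CPM, the second with a UMI in 7 of 43 wells and 98.3% of its UMIs in 5 of them. Igfbp3 was also highest in endothelial-like wells, with 113 CPM (103 to 124), followed by 7.97 in fibroblast-like, 1.81 in cardiomyocyte-like and 0.624 in macrophage-like wells. The endothelial-like wells made up 5.11% of all wells and held 52.1% of the H19 UMIs and 56.8% of the Igfbp3 UMIs.

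Igf2r, which clears IGF2, was highest in endothelial-like wells (254; 239 to 270), then fibroblast-like (151; 146 to 156), macrophage-like (77.3; 64.3 to 92.2) and cardiomyocyte-like wells (59.2; 55.9 to 62.7). The 2 endothelial-like clusters differed, at 359 CPM (337 to 383) and 61.2 (49.1 to 75.3). Igf1r differed less between classes, at 26.2 (18.9 to 35.4) in macrophage-like, 22.5 (20.8 to 24.4) in fibroblast-like, 19.9 (15.8 to 24.6) in endothelial-like and 10.05 (8.70 to 11.5) in cardiomyocyte-like wells. The intervals of the 3 higher classes overlapped, and cardiomyocyte-like wells lay below them. The unnamed cluster led by Upk1b stood at 34.6 (30.8 to 38.8) for Igf1r, with a UMI in 47.3% of its wells. All 42 Igf1r UMIs of the macrophage-like class came from 5 wells.

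Among the named classes, fibroblast-like wells were highest for Igfbp7 (729 CPM; 719 to 739) and Igfbp2 (133; 129 to 138). The unnamed cluster led by Upk1b stood higher still for Igfbp2, at 350 (337 to 362), and for Igfbp4, at 141 (133 to 149). Igfbp7 also reached 535 in endothelial-like wells and 63.1 in cardiomyocyte-like wells, and Igfbp2 reached 60.5, 20.3 and 9.40 in macrophage-like, endothelial-like and cardiomyocyte-like wells. Igfbp4 stood at 36.0 (33.8 to 38.3) in fibroblast-like and 35.1 (29.6 to 41.3) in endothelial-like wells, which overlapped, and at 4.07 in cardiomyocyte-like wells. Igfbp5 was the binding protein gene with its highest level in cardiomyocyte-like wells, at 11.0 (9.55 to 12.5), against 6.78 (4.51 to 9.80) in endothelial-like and 2.12 in fibroblast-like wells. Within that class it was highest in the 44 wells of a cluster led by Sln, Myl7 and Nppa (63.7; 52.0 to 77.2), of which 16 had a UMI.

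**Figure D3:**
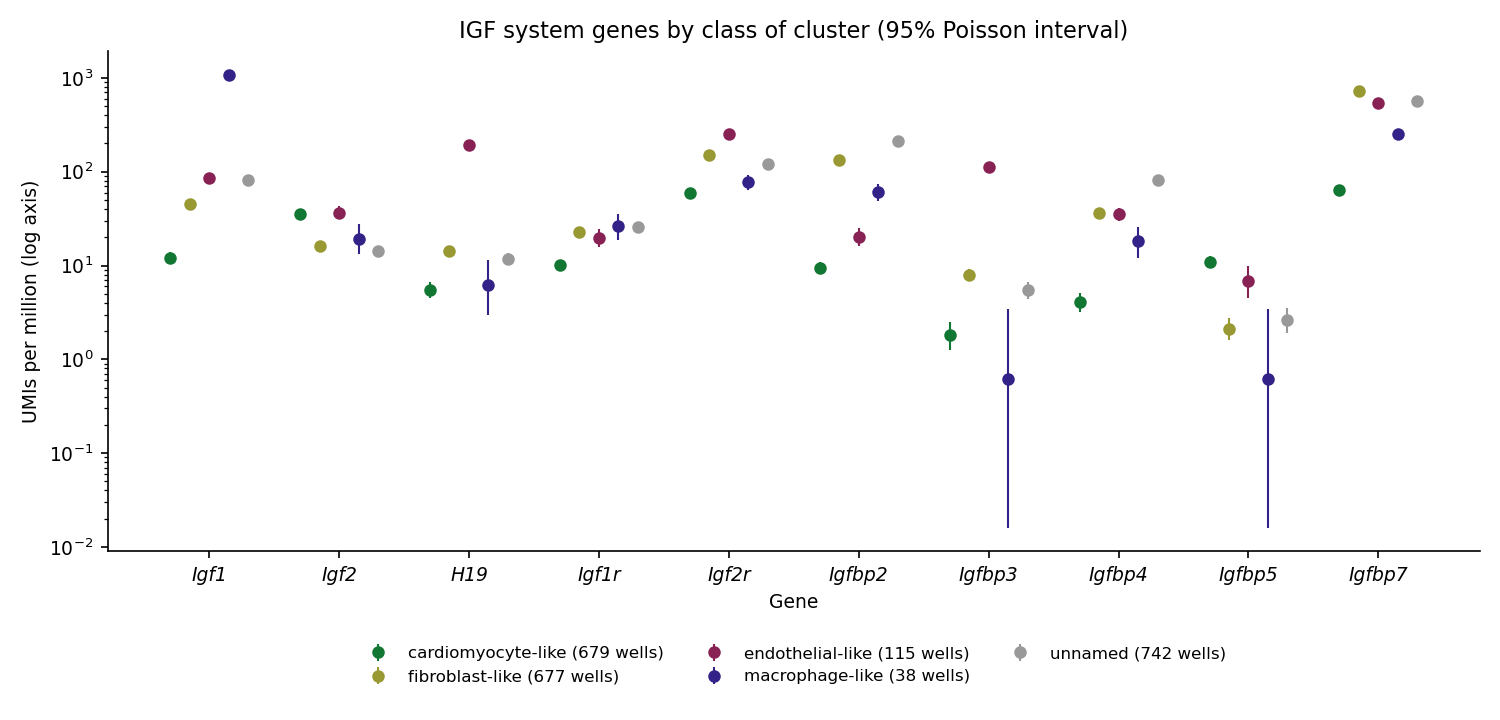
UMI-based CPM on a log axis for each gene in the wells of each class of cluster, with 95% Poisson intervals. Igf1 stands highest in the 38 macrophage-like wells (1063 CPM), H19 and Igfbp3 in the 115 endothelial-like wells (192 and 113), Igfbp7 in the 677 fibroblast-like wells (729), and Igfbp5 in the 679 cardiomyocyte-like wells (11.0). The Igfbp5 intervals of cardiomyocyte-like and endothelial-like wells overlap.

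Between the pools, a difference was counted where the pools of 2 kinds did not overlap and the summed levels were at least 2-fold apart. At least 1 pool of the 2 kinds had to reach 5 CPM, and the gene had to be seen in at least 10 wells. Comparisons that share a kind of well share its pools. In imCM-AF against imCM-NF, 3 of 10 genes met this rule, against 7.37% of all genes. Igfbp4 stood at 3.54, 4.68 and 8.22 CPM in the imCM-NF pools and at 20.3, 24.3 and 22.3 in the imCM-AF pools, 4.03-fold higher. H19 stood at 7.08, 13.8 and 16.7 in imCM-NF and at 30.5, 68.3 and 30.1 in imCM-AF, 3.47-fold higher. Igfbp2 stood at 33.1, 10.9 and 65.4 in imCM-NF and at 3.24, 4.08 and 3.74 in imCM-AF, 9.85-fold lower. Few wells carried these levels. In imCM-NF, 5 of 523 wells gave 77.6% of the Igfbp2, 71.9% of the H19 and 65.8% of the Igfbp4 UMIs. In imCM-AF, 5 wells gave 38.6%, 57.6% and 41.4%. An Igfbp2 UMI was seen in 7.65% of imCM-NF and 5.23% of imCM-AF wells. These shares were 3.63% and 11.2% for H19 and 4.59% and 13.6% for Igfbp4. The mean of the well levels for Igfbp2 was 29.9 CPM in imCM-NF and 5.21 in imCM-AF. In the bulk libraries the same contrast gave log2 fold changes of -0.09 for Igfbp4, -0.09 for H19 and 0.07 for Igfbp2.

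Igfbp3, lower in bulk imCM-AF, was not lower in the imCM-AF wells: its pools stood at 9.46, 25.4 and 12.2 CPM, against 1.27, 1.56 and 14.7 in imCM-NF, with overlap. The share of endothelial-like wells was larger in imCM-AF wells while the endothelial markers were lower in bulk imCM-AF, and the part of this in either value was not tested. Without endothelial-like and macrophage-like wells, a choice made after the levels by cluster were seen, Igfbp3 stood at 1.33, 1.62 and 0.463 CPM in the imCM-NF pools and 2.12, 6.02 and 9.76 in the imCM-AF pools, and met the rule as higher in imCM-AF. It also met the rule with the mean of the well levels. H19 no longer met it without those wells, at 7.47, 14.4 and 2.78 CPM in the imCM-NF pools and 12.7, 10.3 and 29.3 in the imCM-AF pools, which overlapped. Igfbp5, the other gene lower in bulk imCM-AF, stood at 5.31, 7.13 and 4.98 CPM in the imCM-NF pools and at 15.4, 8.69 and 4.42 in the imCM-AF pools, with overlap, and met the rule as higher in imCM-AF with the gene minimum as the only filter on wells.

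Within cardiomyocyte-like wells alone, 302 in imCM-NF and 183 in imCM-AF, the intervals of the 3 genes overlapped. Igfbp2 stood at 3.25 (2.12 to 4.76) and 3.13 (1.96 to 4.74) CPM, H19 at 6.12 (4.53 to 8.10) and 6.69 (4.91 to 8.89), and Igfbp4 at 1.62 (0.865 to 2.78) and 3.27 (2.07 to 4.91). Igfbp7 was the gene that met the rule there, at 20.3, 32.5 and 48.8 in the imCM-NF pools and 85.5, 100.3 and 82.8 in the imCM-AF pools. In bulk it went the other way, with a log2 fold change of -0.43. Of the Igfbp7 UMIs in these wells, 5 wells gave 54.8%, 57.7% and 47.9% in the imCM-NF pools. In the imCM-AF pools 5 wells gave 59.2%, 42.5% and 49.1%. Different clusters made up the class, since 165 and 113 of the imCM-NF wells lay in clusters led by Gm11665 and Cox6a2 and by Ckmt2 and Hopx, and 129 of the imCM-AF wells in a cluster led by Sprr2a1 and Iigp1. Fibroblast markers summed to 2559 CPM in all imCM-AF wells and 997 in all imCM-NF wells, and their part in the pooled values was not tested. The cell cycle genes, lower in bulk imCM-AF where called, summed to 497 CPM in all imCM-AF wells and 332 in all imCM-NF wells. Their pools overlapped, at 541, 544 and 424 in imCM-AF and 450, 257 and 304 in imCM-NF.

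NCM0 wells were set against both kinds of co-cultured imCM well. None of the 10 genes met the rule in imCM-NF against NCM0, against 9.72% of all genes. In imCM-AF against NCM0, 5 of 10 met it, against 14.7%: H19, Igfbp3, Igfbp4 and Igfbp7 were higher and Igfbp2 was lower. Igfbp2 stood at 53.6 and 94.3 CPM in the NCM0 pools. Without endothelial-like and macrophage-like wells, H19 and Igfbp2 met the rule still, and Igfbp3, Igfbp4 and Igfbp7 did not. Within cardiomyocyte-like wells none of the 5 met it. Igf1, Igf2, Igf1r, Igf2r and Igfbp5 met the rule in none of the 3 comparisons when all kept wells of the cardiomyocyte chip were used. For Igf1 this turned on few wells, since macrophage-like wells, 8 in imCM-NF, held 73.3% of its UMIs there. Over all kept wells Igf1 stood at 63.3 CPM in imCM-NF and 50.9 in imCM-AF. Igf2 stood lower, at 30.1 and 36.9, which reverses the order of the ligands in bulk, and the cause was not tested. Without endothelial-like and macrophage-like wells Igf1 stood at 48.6 CPM in NCM0, 13.6 in imCM-NF and 23.96 in imCM-AF, and met the rule as lower in both. Within cardiomyocyte-like wells Igf1 was again lower in imCM-AF than in NCM0 by the rule, and Igf1r and Igfbp4 were lower in imCM-NF than in NCM0. With the mean of the well levels, Igfbp5 was lower in imCM-NF than in NCM0.

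In fibroblasts from co-culture, 4 of the 9 genes that reached 5 CPM met the rule in AF against NF, against 19.5% of all genes. Igf1r stood at 30.5 and 32.6 CPM in the NF pools and at 17.4 and 9.91 in the AF pools, 2.26-fold lower. Igf2 stood at 23.5 and 20.3 in NF and 8.59 and 10.9 in AF, 2.27-fold lower. Igfbp2 stood at 63.3 and 94.3 in NF and 15.7 and 27.1 in AF, 3.72-fold lower. H19 stood at 22.6 and 3.53 in NF and at 48.6 and 25.1 in AF, 2.79-fold higher, with pools of a kind far apart. With the mean of the well levels, H19 and Igf2 no longer met the rule in this comparison. In fibroblast-like wells alone, the rule was met for H19, Igf1r and Igfbp2 in the same directions. There, 57 and 60 of 117 NF wells lay in clusters led by Dqx1 and Ccl17 and by 1700016D06Rik, and 162 of 164 AF wells in a cluster led by Saa3 and Cxcl5.

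NF wells differed from NF0 wells in 2 of 9 genes, against 14.4% of all genes. Igf1 stood at 27.8 and 43.5 CPM in NF and at 100.2 and 128 in NF0, 3.33-fold lower in NF. Igfbp2 stood at 194 and 299 in NF0, and was 3.32-fold lower in NF. Macrophage markers summed to 238 CPM in NF and 661 in NF0. Without endothelial-like and macrophage-like wells Igf1 stood at 7.13 and 25.1 in NF and at 44.5 and 90.5 in NF0, so the pools still did not overlap. H19 and Igfbp3 met the rule as lower in NF in that setting and in fibroblast-like wells alone.

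AF wells differed from AF0 wells in 6 of 9 genes, against 26.7% of all genes. Igf1 (151 and 115 CPM in AF0; 31.2 and 33.8 in AF), Igf1r (31.6 and 36.2; 17.4 and 9.91), Igfbp2 (309 and 351; 15.7 and 27.1) and Igfbp4 (125 and 151; 28.3 and 56.6) were lower in AF. Igf2 and H19 were higher in AF, with 6 UMIs of Igf2 and 15 of H19 in all AF0 wells (0.704 and 1.76 CPM). As given above, nearly all AF0 wells lay in the cluster led by Upk1b, and AF0 had 1 fibroblast-like well, so the comparison within fibroblast-like wells could not be made.

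AF0 against NF0 met the rule in 3 of 9 genes, against 21.1% of all genes. Igfbp4 stood at 37.8 and 31.1 CPM in NF0 and was 4.21-fold higher in AF0. Igf2 (18.3 and 16.2 in NF0) and H19 (27.9 and 6.86 in NF0) were lower in AF0. Igf2r and Igfbp7 met the rule in no comparison of fibroblast-chip wells, with Igf2r between 120 and 194 and Igfbp7 between 536 and 772 CPM over the 8 pools. Igfbp5 did not reach 5 CPM in any fibroblast-chip pool, at most 2.59.

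**Figure D4:**
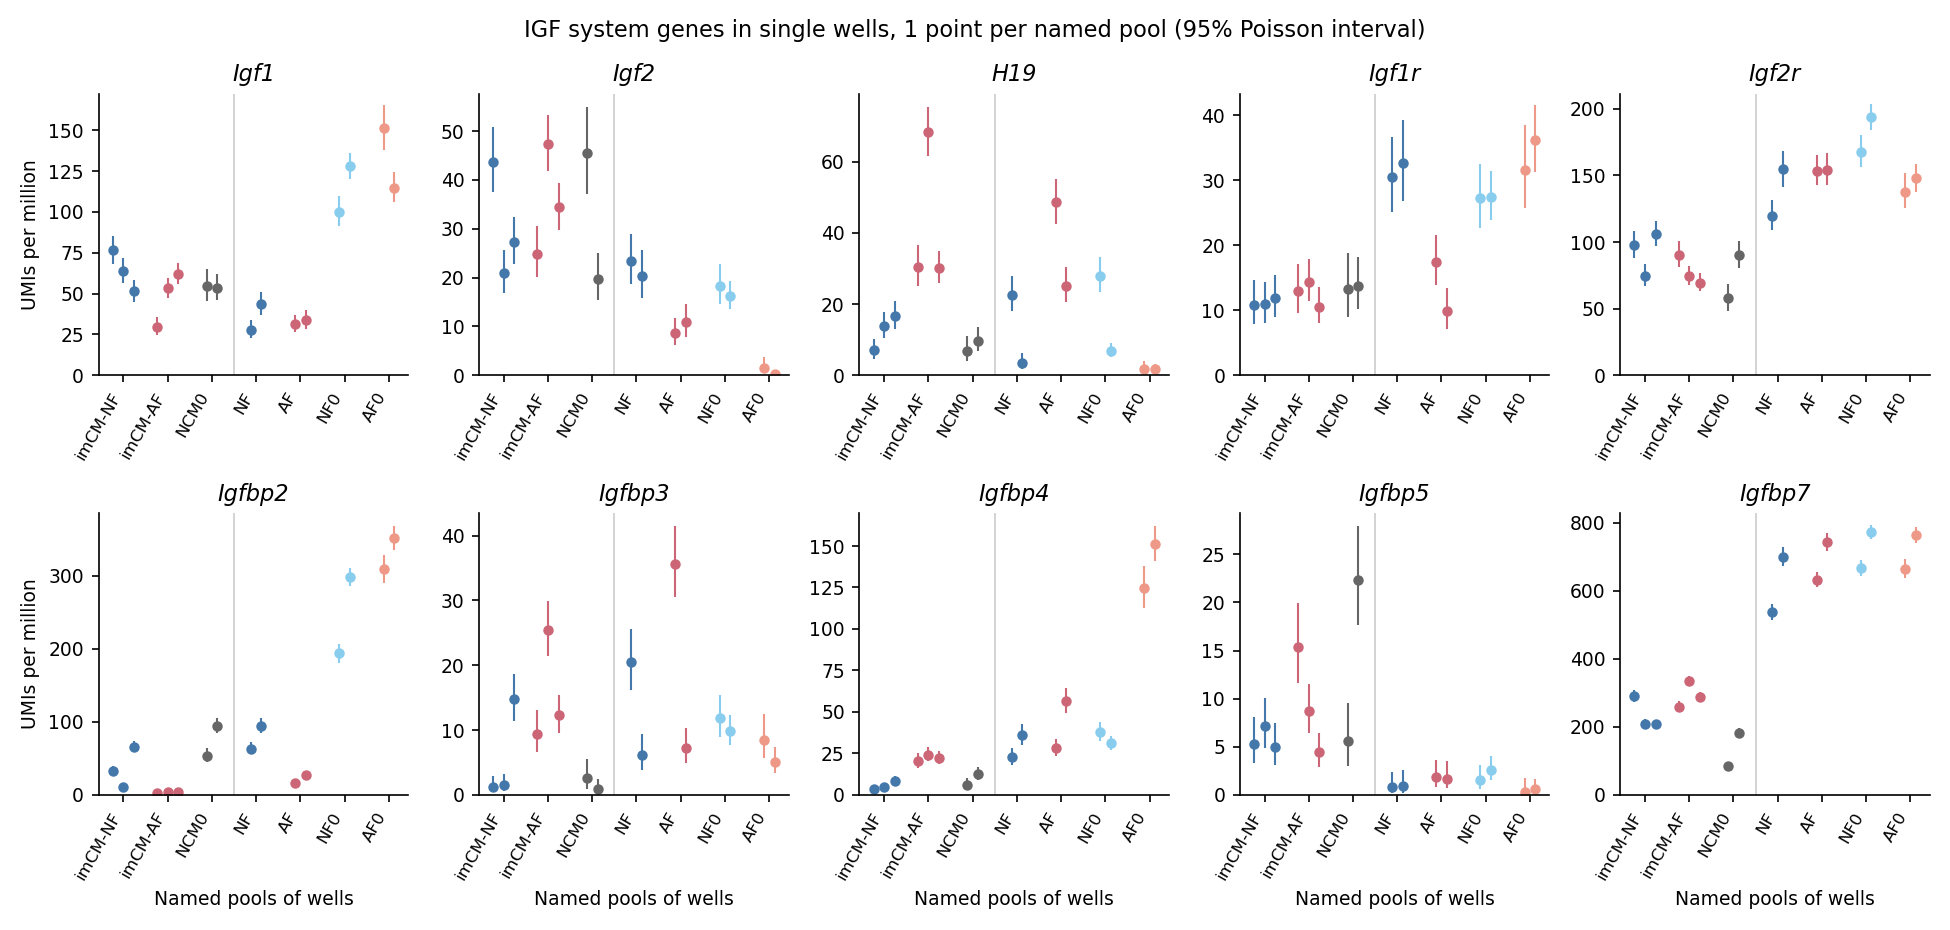
UMI-based CPM for each gene in each named pool, 1 point a pool with its 95% Poisson interval, cardiomyocyte-chip pools left of the grey line and fibroblast-chip pools right of it. Each panel has its own linear axis from 0. Igfbp2 lies between 3.24 and 4.08 in the 3 imCM-AF pools and between 194 and 351 in NF0 and AF0, Igfbp4 is highest in AF0 (125 and 151), and Igfbp5 is below 3 in all fibroblast-chip pools.

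**Figure D5:**
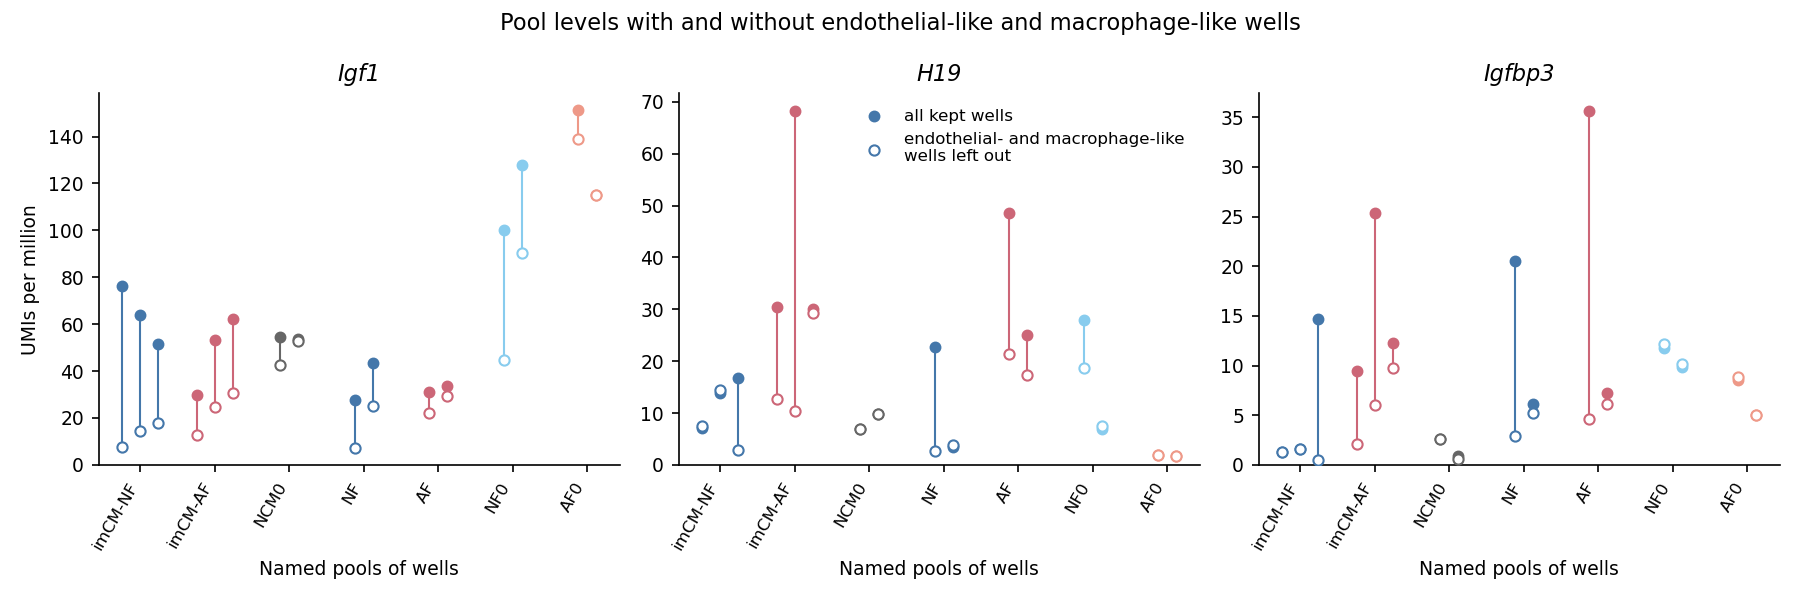
Igf1, H19 and Igfbp3 in UMI-based CPM by pool, with all kept wells (filled) and with endothelial-like and macrophage-like wells left out (open). Igf1 drops from 76.4 to 7.73 in the first imCM-NF pool and from 53.2 to 24.5 in the second imCM-AF pool, H19 drops from 68.3 to 10.3 in the second imCM-AF pool, and Igfbp3 drops from 35.6 to 4.64 in the first AF pool.

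The pools also gave the genes most like the ligands and H19, as Pearson correlations of log levels over the 16 pools among 9053 genes. Igf1 was most like Crebrf (r = 0.870), Lrrc75a (0.859) and Wls (0.853). Igf2 was most like the lipoprotein lipase gene Lpl (0.943), Dynlt1b (0.940) and Mrps18c (0.934), and H19 most like Cops3 (0.852), Tspo (0.841) and Pcdh17 (0.830), the last of which is among the leading genes of an endothelial-like cluster. The 16 points share 2 chips and differ in depth, so these values are a description.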

How the data were processed

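The bulk table holds raw read counts per gene as deposited by the authors (reads on mm10, RefSeq genes, featureCounts; strand setting not given in the sources used here). The authors also deposited counts of UMIs for every gene in every well, and a report that names the wells; STAR 2.5.2b and Subread 1.4.6-p1 are listed in the submitters' processing notes. Columns of the authors' own fold changes were not used.

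Of 27179 bulk rows, 25275 matched a symbol. Genes over 1 CPM in at least 2 libraries were tested with edgeR 4.0.16 (TMM scaling, no covariate), and DESeq2 1.42.0 and limma 3.58.1 were alternatives. The fit was tested on simulated data. Bulk CPM are scaled by TMM-adjusted library totals, and CPM of wells by the summed UMIs of a pool. The study filtered genes by RPKM, which was tried as an alternative.

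The filter on wells asked for 500 genes, over 50% of reads aligned and UMIs within 2 SD of the mean (at most 131539). Of 1648 wells with co-culture names, the number of co-cultured cells the study isolated, 1515 were kept. The study also dropped co-cultured cells whose sorted type and cluster type disagreed. That step was not applied to the pools here. Mitochondrial genes and genes in fewer than 10 wells were left out. No doublet caller was run, and the study chose wells with 1 live cell by imaging. Wells were clustered with scanpy 1.11.5 (10 components, 30 neighbours, resolution 1) without the IGF genes. Clusters were named where markers of a list were raised at least 2-fold over all other wells or, failing that, over the lower quartile of clusters, a rule set after the data had been seen.

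All 10 IGF genes are named; of each list the called genes and up to 5 others of highest mean CPM are. The genes and lists were chosen with earlier results of these data known.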

Additional observations from a re-analysis of the deposited data

Results flagged for a closer look

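The contrast of adult with neonatal fibroblast wells pointed in opposite directions in the co-culture and in the 0 wells for 3 genes, with no overlap of pools in either, and the difference between the contrasts was not tested. How many of all genes do the same was not counted, so the 3 are not set against a background. The level in AF over that in NF was 2.79 for H19, 0.442 for Igf1r and 0.269 for Igfbp2, while AF0 over NF0 gave 0.120, 1.26 and 1.29. Each pool pair of a kind holds 2 pools of 1 library, and 168 of 171 AF0 wells lay in the cluster led by Upk1b.

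The positive control wells, which belong to no comparison, held UMIs of some of the genes where the negative control wells of the same chip held none or a lower level. There were 18 UMIs of Igfbp5 on the cardiomyocyte chip, and 25 of Igfbp5, 21 of Igfbp7 and 5 of Igf2r on the fibroblast chip. Depth differed, at 19026 UMIs over all genes in positive and 1465 in negative control wells of the cardiomyocyte chip. On the fibroblast chip the totals were 49439 and 3587, so absence from the negative control wells says little. What the positive control wells contained is not stated in the sources used here.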

How the results depend on the processing

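Bulk calls: 1564 genes were called, and 879 to 1929 with 1 library left out (879 when imCM-NF replicate 2 was the one left out, and 988 for imCM-AF replicate 2), where the lone library of a group is assumed to vary like the other group. The other scalings, filters and tools gave 1078 to 1704, and a log2 threshold of 1 gave 565. Of the IGF genes, 2 were called in these settings, with 2 to 3 when 1 library was left out (Igfbp7 was added without imCM-NF replicate 1) and 0 at a log2 threshold of 1. Some uncalled log2 fold changes changed sign when 1 library was left out, with ranges from -0.26 to 0.27 for Igf1, -0.066 to 0.107 for Igf2, -0.155 to 0.0002 for H19, -0.064 to 0.0985 for Igf1r, -0.17 to 0.2999 for Igfbp2 and -0.197 to 0.03 for Igfbp4. Those of Igf2r (-0.494 to -0.424) and Igfbp7 (-0.595 to -0.241), also uncalled, stayed negative. With the crossed replicate block, Igf1 was -0.0011. The cause was not tested.

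Deviations of same-numbered libraries correlated at -0.131 over 14041 genes. With 2 libraries a group, each group gives a single deviation a gene, so this value cannot show whether the numbers pair the libraries. The fit with the replicate block called 1430 genes and 2 IGF genes. Its adjusted p in edgeR was 0.0582 for Igf2r and 0.154 for Igfbp7. The crossed replicate block, added after seeing the data, called 1668 genes and 2 IGF genes.

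Single wells: 23 differences between kinds of well met the rule over 7 comparisons, in which 7.37% to 26.7% of all genes met it. There were 28 with the gene minimum as the only filter (23 of them shared), 23 with the mean of well levels (21 shared), 24 without endothelial-like and macrophage-like wells (19 shared, added after seeing the data) and 11 with only wells of the named class (5 shared), where AF0 could not be compared. The share of all genes was not taken in these alternatives. Of the values by kind of well, 169 of 270 moved by more than their counting interval under an alternative. Clustering gave 16, 12 and 14 clusters at resolution 1, resolution 0.5 and 20 components. The class with the highest level stayed for all 10 genes at resolution 0.5 and for 9 with 20 components, where Igfbp4 was highest in endothelial-like wells. Few UMIs limit Igfbp5 and Igfbp3 most, and 2 libraries a group limit all bulk values.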
